A study of Caenorhabditis elegans with 2 samples.

Results

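The 243 regions described here are replicate-shared peaks of NHR-11 in late embryos of Caenorhabditis elegans. They rank below the strongest sites, those of the authors' thresholded list. Chromatin immunoprecipitation followed by sequencing (ChIP-seq) recovers the DNA bound by a protein, and a peak is a stretch of genome with more recovered DNA than its control. The study had 1 group with 2 biological replicates: whole late embryos of mixed sex, of unknown age, from strain OP305 (unc-119(ed3) III; wgIs305), in which wgIs305 is an inserted transgene for eGFP-tagged NHR-11. Both replicates therefore carried the unc-119 mutation and the transgene, and there was no untreated or untagged group. The labels name no driving promoter and no copy number for the transgene. In whole embryos, binding in a few cells and weak binding in many cells cannot be told apart. The sites were chosen by the deposited peak signal: of the 2000 highest peaks of replicate 1, 337 (16.9%) overlapped by at least 1 bp 1 of the 2000 highest peaks of replicate 2, and 94 of these were left out because they also overlapped 1 of the strongest peaks of the pooled list. The pooled peaks used for this removal are the same as the authors' thresholded list, and the 94 removed peaks are called the thresholded sites below. The remaining 243 peaks covered 237 separate sites, since 6 sites held 2 overlapping peaks of replicate 1 each. The other 1663 of the 2000 replicate 1 peaks and 1667 of the 2000 replicate 2 peaks were the non-shared peaks, and their replicate 1 and replicate 2 lists are given side by side throughout as a measure of how far 2 replicates differ. Signal values and sharing are a description, since the choice of sites fixed them, whereas position, nearby genes and sequence were not used in the choice. No test across regions was made, because regions of 1 pair of libraries are not replicates. All intervals are 95% Wilson intervals, which cover counting error only, and the sequencing depth behind the peaks is unknown.

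Nuclear hormone receptors are transcription factors that bind DNA through a zinc-finger domain, and many of them are switched by small lipophilic ligands. Many receptors recognise a short core sequence such as AGGTCA, singly or as a pair of copies. The family is greatly expanded in nematodes, where members act in metabolism, moulting and development, and the ligands of most of them are unknown. A receptor bound near the 5' end of a gene lies where it can act on that gene's promoter, although binding alone does not show regulation.

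Sequences of 14 sites are shown to give the base composition and repeats that the results below count. Each runs from 50 bases before to 50 bases after the replicate 1 summit, on the plus strand of the ce11 (WBcel235) genome from RefSeq, 5' to 3'. The first 8 are the sites of highest rank in both replicates whose window touches no annotated exon and whose peak matches no other place in the genome. The other 6, under the same conditions, are the site that held a receptor core sequence and the next 5 in order that held a 6-base word more common in the members. Capitals mark, on either strand, the receptor core sequence as AGGTCA or as GGGTCA, and the words GAGAGA and GAGAAA and AGAGAG and CTGCGC and AAGCCA.
rpl-11.2, chrX:2242710-2242810: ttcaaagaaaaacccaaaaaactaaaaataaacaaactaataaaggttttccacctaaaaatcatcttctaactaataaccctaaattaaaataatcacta
sdn-1, chrX:10593364-10593464: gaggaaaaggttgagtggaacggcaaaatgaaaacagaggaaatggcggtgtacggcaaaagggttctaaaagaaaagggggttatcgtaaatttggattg
ttc-36, chrII:10029520-10029620: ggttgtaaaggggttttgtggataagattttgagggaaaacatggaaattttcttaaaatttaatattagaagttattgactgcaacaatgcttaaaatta
hlh-6, chrII:9615234-9615334: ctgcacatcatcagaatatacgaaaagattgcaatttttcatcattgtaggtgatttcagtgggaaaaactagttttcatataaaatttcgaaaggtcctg
F59B10.9, chrII:10504838-10504938: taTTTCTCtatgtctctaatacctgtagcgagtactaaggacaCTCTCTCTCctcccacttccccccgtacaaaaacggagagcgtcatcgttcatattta
F09A5.11, chrX:13147210-13147310: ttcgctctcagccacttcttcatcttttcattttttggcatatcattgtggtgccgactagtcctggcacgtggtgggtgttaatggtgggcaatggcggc
C16C10.4, chrIII:4171116-4171216: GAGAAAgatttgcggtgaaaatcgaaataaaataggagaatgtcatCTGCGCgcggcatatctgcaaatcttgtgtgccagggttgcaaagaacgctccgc
F53A3.8, chrIII:1925237-1925337: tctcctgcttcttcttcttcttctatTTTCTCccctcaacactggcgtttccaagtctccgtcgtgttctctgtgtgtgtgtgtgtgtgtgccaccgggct
F09C8.4, chrX:16147951-16148051: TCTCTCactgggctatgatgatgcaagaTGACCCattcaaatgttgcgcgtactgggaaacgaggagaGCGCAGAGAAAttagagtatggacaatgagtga
F57F4.6, chrV:6381658-6381758: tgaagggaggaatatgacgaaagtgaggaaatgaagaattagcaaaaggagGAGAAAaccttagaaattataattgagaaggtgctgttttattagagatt
nhr-1, chrX:17513638-17513738: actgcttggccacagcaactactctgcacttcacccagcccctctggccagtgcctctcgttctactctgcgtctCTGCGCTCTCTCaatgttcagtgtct
sdn-1 (second peak), chrX:10593586-10593686: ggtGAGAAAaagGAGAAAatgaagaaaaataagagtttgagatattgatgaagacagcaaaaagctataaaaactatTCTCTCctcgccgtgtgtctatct
aex-3, chrX:760779-760879: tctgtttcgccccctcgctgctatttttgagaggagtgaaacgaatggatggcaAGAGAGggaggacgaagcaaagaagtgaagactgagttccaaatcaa
M176.13, chrII:9429679-9429779: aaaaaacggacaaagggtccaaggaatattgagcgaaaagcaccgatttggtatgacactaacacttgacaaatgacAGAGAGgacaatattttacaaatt
The upstream windows of rpl-11.2, ttc-36 and hlh-6 held none of the marked words and had a GC content of 22.8%, 27.7% and 32.7%. The first sdn-1 window and that of F09A5.11 also held none. Repeats of C and T lay in the F59B10.9, nhr-1 and F53A3.8 windows, and the last also had a repeat of G and T. Of the 14, only the F09C8.4 window held a receptor core sequence.

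The shared sites were of middling strength in both replicates, and most had a higher signal value in replicate 1, whose list also ran higher at the same rank. Their signal, in the unit of the authors' caller, had a lowest value of 20.6, a median of 24.2 and a highest of 41.2 in replicate 1. In replicate 2 these values were 17.6, 20.8 and 33.0. The ranges overlapped, with replicate 1 the higher in 188 sites and replicate 2 in 55. No scaling between the replicates is stated, so a ratio also holds any difference in depth. At rank 2000 the signal was 20.5 in replicate 1 and 17.6 in replicate 2. The counts of 188 and 55 therefore also hold this offset between the lists. The median log2 ratio of replicate 1 to replicate 2 was 0.22 (SD 0.31 over 243 sites). Both ranks were within 500 for 32 of the 243 and within 1000 for 88. The median rank of the members was 802 in replicate 1 and 797 in replicate 2. In replicate 1 it was 1072 for the non-shared peaks and 102 for the thresholded sites. The authors' false discovery rate, the share of peaks at least that strong expected to be background, was at most 0.05 for 22 members among the 152 such peaks of the replicate 1 list, and for 0 members among the 47 of the replicate 2 list. Over the members its median was 0.27 in replicate 1 and 0.27 in replicate 2, and its highest values were 0.43 and 0.43. A single member is therefore a shared peak and not an established binding site.

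**Figure D1:**
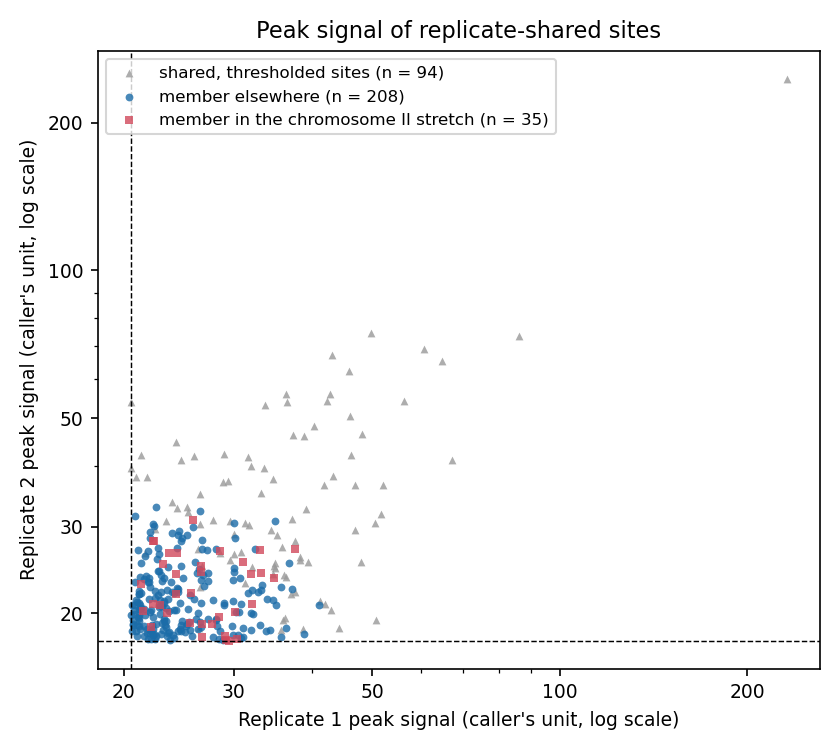
Peak signal of the shared peaks in replicate 1 (x) and replicate 2 (y), in the unit of the authors' caller, on log axes. Each point is 1 replicate 1 peak: blue circles and red squares are the 208 and 35 members outside and inside a stretch of chromosome II, grey triangles the 94 thresholded sites, and dashed lines the signal of rank 2000 (20.5 and 17.6). Members lie between these lines and 41.2 and 33.0.

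The limits of the choice passed through a dense part of the lists. Ranks 2000 and 2001 had equal signals after rounding, 20.5 in replicate 1 and 17.6 in replicate 2. The last sites inside were those nearest to R09A8.6, with 28.8 in replicate 1 and 17.6 in replicate 2 (replicate 2 rank 1980), and to ceh-58, a homeobox gene, with 29.4 and 17.6 (rank 1993). Just outside were peaks nearest to WBGene00023201, with 29.8 and 17.6 (rank 2015), and to C26H9A.3, with 21.98 and 17.6 (rank 2027). At the upper limit, the members highest in the pooled list lay at hda-4, a class II histone deacetylase gene, and at C07E3.17, a noncoding RNA gene. Their pooled signals of 55.1 and 54.9 gave pooled ranks 102 and 106, next to the 55.2 of the last removed peak. A pooled peak overlapped 238 of the 243 members, with a median pooled rank of 311.5 and 171 within the first 500. The 5 members without one all lay in the stretch of chromosome II described below.

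The 2 replicates placed their summits close together at these sites. The median distance between replicate 1 and replicate 2 summits was 66 bp, and 164 of 243 (67.5%, 61.4 to 73.1) were within 100 bp. Among the thresholded sites the median was 39 bp and the share within 100 bp was 80.9% (71.8 to 87.5). Among the 838 non-shared replicate 1 peaks that overlapped a weaker replicate 2 peak it was 93.5 bp and 52.1% (48.8 to 55.5). The strongest class had the shortest distance and the non-shared class the longest, and the distance that overlap allows is bounded by the peak widths of 370 and 356 bp. A further 825 non-shared peaks overlapped no replicate 2 peak.

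**Figure D2:**
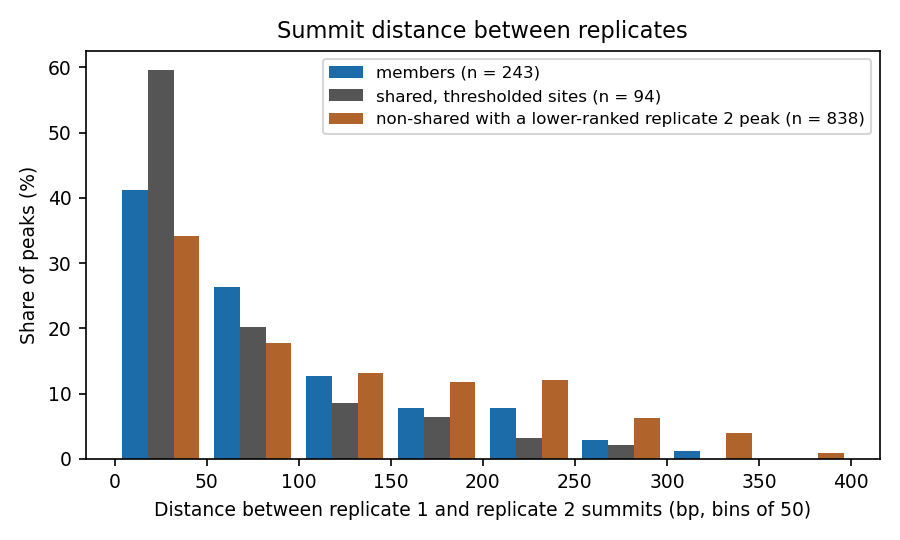
Share of peaks (y, %) by distance between the replicate 1 and replicate 2 summits (x, bp, bins of 50) for the members (blue), the thresholded sites (grey) and non-shared peaks with a weaker replicate 2 peak (brown). Within 100 bp lie 67.5% of members, 80.9% of the strongest and 52.1% of the non-shared peaks.

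The 30 sites of best rank in both replicates were nearest to genes of varied function, and 18 of the 30 had a summit within 1000 bp of a gene's 5' end. That share was 63.0% of all members, 56.9% and 57.8% of the non-shared lists and 49.8% of the bases of the genome. The nearest gene was protein-coding for 19 of the 30 and a noncoding RNA gene of the annotation's ncRNA class for 9. The site of best rank lay 142 bp upstream of rpl-11.2 (chrX:2242575-2242944, intergenic), which encodes a protein of the large ribosomal subunit. Its signal was 34.9 in replicate 1 and 30.9 in replicate 2, its 2 summits were 220 bp apart, and its pooled rank was only 2197. The second, nearest to the piRNA gene 21ur-13428 on chromosome II, lay in a coding exon with signals of 37.6 and 27.1. The gene of syndecan, sdn-1, a cell-surface heparan sulfate proteoglycan that guides neurons, had 2 overlapping peaks upstream of it on chromosome X. They lay 80 and 302 bp from its 5' end with 32.4 and 26.7 in replicate 1 and met the same replicate 2 peak of 27.01, so they count as 1 site.

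The site 456 bp upstream of hlh-6 (chrII:9615099-9615468), a basic helix-loop-helix factor needed for pharyngeal glands, had 31.1 in replicate 1 and 25.4 in replicate 2. A site 375 bp upstream of nhr-1 (chrX:17513503-17513872), itself a nuclear hormone receptor gene, had 26.7 and 28.3. The site 356 bp upstream of tom-1, which encodes the exocytosis inhibitor tomosyn, had 35.7 and 22.6. The site 1095 bp upstream of aex-3, an exchange factor gene for Rab proteins of synaptic vesicles, had 26.8 and 22.8. Of these 4 sites, nhr-1 was the one that was higher in replicate 2, and replicate 1 was the higher in 26 of the 30.

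The site 620 bp upstream of ttc-36, a tetratricopeptide repeat gene, had 33.1 in replicate 1 and 26.97 in replicate 2. That in an intron of aass-1, a lysine breakdown enzyme gene, had 26.5 and 32.4, the highest replicate 2 value of the 30. The site at C16C10.4 lay 170 bp upstream of it, with the start of the RING finger gene rnf-121 213 bp away, with 27.2 and 24.2. Sites nearest to spsb-2 (30.2 and 28.6), strl-1 (36.8 and 25.3) and mrpl-53, a mitochondrial ribosomal protein gene (26.6 and 24.9), lay 579, 376 and 3367 bp from the 5' end. The spsb-2 peak also matched 341 other places in the genome, so its reads may belong to other copies. The site 117 bp upstream of the noncoding RNA gene F25D1.11, with the phosphatase gene ppm-1.A 628 bp away, had 30.1 and 24.3. The site at F48C1.13 lay 479 bp from its 5' end and 863 bp from the chromatin remodelling gene let-526, and it had 30.05 and 30.5. The other 14 sites of the 30 were nearest to W10C4.1, R09D1.13, F59B10.9, C07E3.17, Y5F2A.4, ZK945.4, WBGene00022023, F09A5.11, unc-122, F53A3.8, F57F4.6, Y87G2A.13, M176.13 and Y71H2AM.27, and the intronic site of unc-122 was the farthest, 8063 bp from the 5' end.

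Members lay nearer to gene 5' ends than non-shared peaks did, by a margin that was small and depended on the window and on the gene classes counted. Of 243 members, 120 had a summit no more than 500 bp from a 5' end (49.4%, 43.2 to 55.6). This compared with 40.1% (37.8 to 42.5) of non-shared replicate 1 peaks and 40.3% (38.0 to 42.7) of non-shared replicate 2 peaks, so the members' interval overlapped neither, and the 2 non-shared lists were closer to each other than to the members. Placed by the replicate 2 summits of 241 replicate 2 peaks chosen in the same way, the share was 49.0% (42.7 to 55.2). Within 1000 bp it was 63.0% (56.7 to 68.8) for members, compared with 56.9% and 57.8% for the non-shared lists, and the intervals overlapped. Within 2000 bp the shares were 79.0%, 78.0% and 78.0%. The genome as a whole has 30.1%, 49.8% and 73.1% of its bases within these distances. The median distance to the nearest 5' end was 516 bp for members, 760 bp and 737 bp for the non-shared lists and 298 bp for the thresholded sites.

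Grouped by replicate 1 rank, the difference within 1000 bp was widest in the group of lowest rank. For replicate 1 ranks 1 to 500 the share was 55.3% of 85 members and 56.3% of 336 non-shared peaks. For the next 500 ranks it was 60.3% of 58 and 57.1% of 434, and for the last 1000 it was 71 of 100 members and 57.0% of 893. Cutting each replicate list at fewer peaks redefines both the members and the non-shared peaks. With the 1000 highest peaks of each replicate, which gave 88 members, the difference was 6.01 percentage points, compared with 6.08 for all members. With the 500 highest, which gave 32 members, it was -0.857. Whether the strongest members share the difference is therefore not settled. Upstream summits within 1000 bp made up 37.9% of members (32.0 to 44.1), 33.4% of non-shared replicate 1 and 33.6% of non-shared replicate 2 peaks. The 5' ends of at least 2 genes lay within 1000 bp of 27.2% of members (21.96 to 33.1), 22.97% and 22.3% of the non-shared lists and 41.5% (32.1 to 51.6) of the thresholded sites.

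Fewer members than non-shared peaks fell in protein-coding sequence. The summit was in a coding exon in 19 members (7.8%, 5.1 to 11.9), 230 of 1663 non-shared replicate 1 peaks (13.8%, 12.3 to 15.6) and 200 of 1667 non-shared replicate 2 peaks (10.5 to 13.6), and the first interval overlapped the last. By replicate 1 rank, 7 of 85, 5 of 58 and 7 of 100 members lay in coding exons in the 3 rank groups above, compared with 47 of 336, 61 of 434 and 122 of 893 non-shared peaks. Intergenic summits made up 46.5% of members, 42.4% and 43.2% of the non-shared lists and 62.8% (52.7 to 71.9) of the thresholded sites. Intronic summits made up 25.1%, 26.9% and 31.4%. Noncoding exons held 7.8% (5.1 to 11.9) of members and 4.2% of both non-shared lists, and 5' UTRs held 11 members (4.5%, 2.5 to 7.9), 2.3% and 1.7%.

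**Figure D3:**
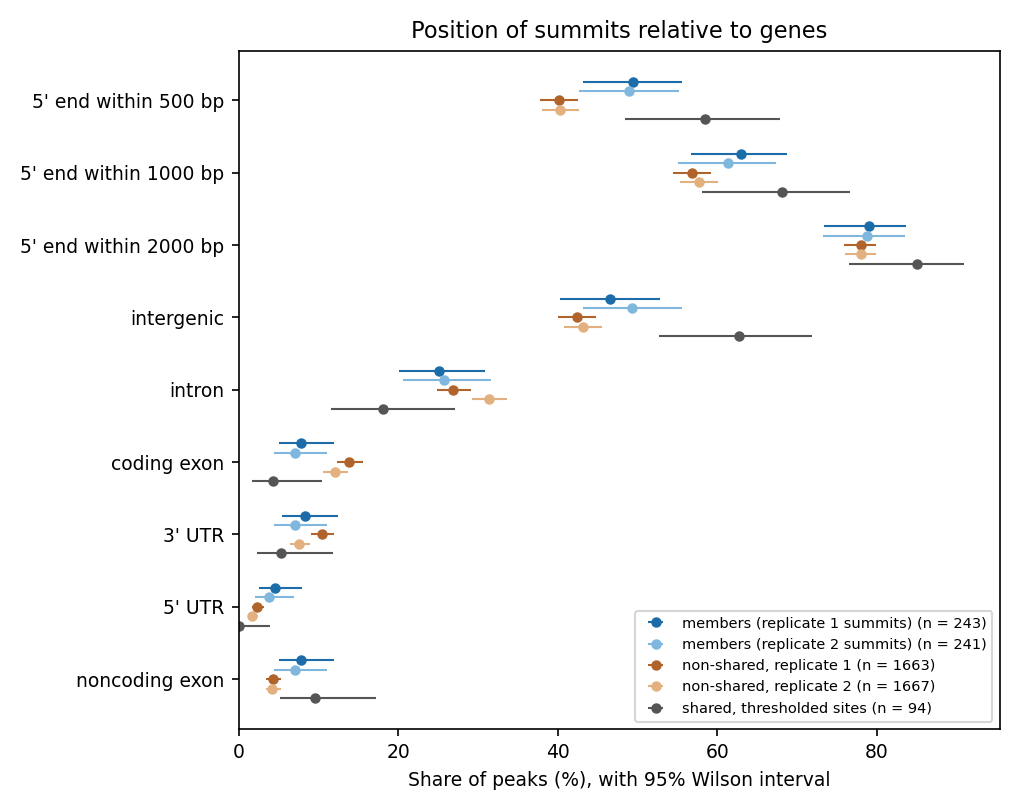
Share of peaks (x, %, with 95% Wilson intervals) within 500, 1000 and 2000 bp of a gene 5' end and in each annotated context (y), for members placed by replicate 1 and by replicate 2 summits (blue), non-shared peaks of each replicate (brown) and thresholded sites (grey). Members stand above both non-shared lists within 500 bp (49.4%, 40.1% and 40.3%) and below them in coding exons (7.8% of members and 13.8% of non-shared replicate 1 peaks).

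No gene class gathered many of the members. Of 22 lists of genes matched by symbol, the most members were counted for developmental transcription factors, with 4 sites within 1000 bp of a listed 5' end (1.6%, compared with 0.5% and 0.9% of the non-shared lists and 3.2% of the thresholded sites). They were hlh-6, the homeobox genes ceh-23 (33.2 in replicate 1 and 22.4 in replicate 2) and ceh-58, and the ETS factor gene ets-5 (21.98 and 29.4). The 5' end of ets-5 lay 990 bp from the summit, and that of a tRNA gene was closer, at 179 bp. The pharynx list, of genes of the feeding organ, had 3 sites, at hlh-6, abu-12 and pqn-53 (1.23%, 0.42 to 3.57, compared with 0.24% and 0.12% of the non-shared lists, with overlapping intervals for both replicate lists). Nuclear hormone receptor genes had 2 of 243 (0.82%), at nhr-1 and nhr-32 (30.6 and 20.1), compared with 0.66% and 0.60% of the non-shared lists. Ribosomal protein genes had 2, at rpl-11.2 and rpl-12 (22.2 and 30.5), which is 0.82% compared with 0.18% and 0.42% of the non-shared lists, whereas 7 of the 94 thresholded sites (7.45%, 3.65 to 14.6) lay at such genes. Chemoreceptor genes had 2, at srh-135 and srh-2, and 38 non-shared replicate 1 and 19 non-shared replicate 2 peaks (2.29% and 1.14%). Mitochondrial genes had 2 (0.82%, compared with 0.24% and 0.54%), at idh-2, an isocitrate dehydrogenase gene, and at cox-5B, a cytochrome c oxidase subunit gene whose 5' end lay 21 bp from the summit.

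The 1-site lists were 6 in number, each at 0.41% of members and at 0 to 0.36% of either list of non-shared peaks. These were hsp-60 of the chaperones, ubc-25 of the ubiquitin genes, myo-3, the myosin heavy chain A of body-wall muscle, ric-3 of the neuronal genes, which helps assemble acetylcholine receptors, and cpr-9 of the intestinal genes, a cathepsin B-like protease. The last, pod-1, matched the lipid list by its symbol, but is known as a coronin-like protein of cell polarity. The 5' end of cpr-9 lay 852 bp from the summit, and that of a tRNA gene was closer, at 25 bp. Histone, translation factor, tRNA synthetase, splicing, cuticle, neuropeptide, detoxification, epidermis and germline genes had 0 members, which allows a share of up to 1.23% by the limit of 3 counts, or 1.56% by the Wilson interval. The genes of the transgene, nhr-11 and unc-119, also had 0. Of the non-shared peaks of either replicate, 0.06% to 0.90% lay near each of the classes from histone to germline.

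Noncoding RNA genes stood near some members, at shares whose intervals overlapped those of the non-shared peaks. Genes of the ncRNA class lay within 1000 bp of 48 members (19.8%, 15.2 to 25.2), 14.3% of non-shared replicate 1 and 16.6% of non-shared replicate 2 peaks. tRNA genes lay near 9 (3.7%, 2.0 to 6.9), 2.1% and 2.2%, and 7 of these 9 sites were on chromosome X. The share of all tRNA genes that lie on chromosome X is not given here, so no excess on X can be read from this count. The ets-5 and cpr-9 sites named above are among the 9. snoRNA genes, whose RNAs guide modification of ribosomal RNA, lay near 6 members (2.5%), 1.4% and 2.1%, and near 7.4% of the thresholded sites. snRNA genes of the spliceosome lay near 0 members and 4 of the 94 thresholded sites. piRNA genes lay near 13 members (5.3%), 7.2% and 6.4%. The microRNA genes mir-228 and mir-79 lay near 1 member each.

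A single stretch of chromosome II held more members than any other of its length. The 1.2 Mb at chrII:9400001-10600000, which was singled out after the counts per 100 kb had been seen, is 1.197% of the genome and held 35 of the 243 members (14.4%, 10.5 to 19.4). It held 5.3% (4.3 to 6.5) of non-shared replicate 1 peaks, 5.8% (4.7 to 7.0) of non-shared replicate 2 peaks and 15.96% (9.9 to 24.7) of the thresholded sites. Among 910 other windows of the same length, the median held 2 members and the highest 11. The 6 bins of 100 kb just before the stretch and the 8 just after it held no member.

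Peaks of the full lists were also denser and higher there in both replicates. All peaks of the replicate 1 list numbered 419 per Mb inside and 255 per Mb elsewhere, with median signals of 15.8 and 12.8. In replicate 2 they numbered 507 and 289 per Mb, with median signals of 13.2 and 10.7. The rest of chromosome II had medians of 12.8 and 10.6, like the other chromosomes. Of the 2000 highest peaks, 138 in replicate 1 and 145 in replicate 2 lay inside, compared with at most 48 and 53 in any other window of this length. A replicate 1 peak among the 2000 was shared in 50 of 138 cases inside (36.2%, 28.7 to 44.5) and in 287 of 1862 elsewhere (15.4%, 13.8 to 17.1). The part that a regional rise of signal has in these 35 sites was not tested, and the place of the transgene insertion is not given in the sources used here.

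Inside the stretch, a smaller share of members lay close to a gene 5' end of any class, and a larger share in introns and coding exons. The intervals overlapped for each, which does not by itself place a difference within the counting error. Of the 35, 12 (34.3%, 20.8 to 50.8) lay within 500 bp of a 5' end, compared with 108 of the other 208 (51.9%, 45.2 to 58.6), and the intervals overlapped. Median distances to the nearest 5' end were 991 bp and 462.5 bp. For protein-coding 5' ends the shares within 500 bp were 31.4% and 32.2%. Introns held 14 of the 35 (25.6 to 56.4) and 22.6% (17.4 to 28.7) of the other 208, and coding exons 17.1% (8.1 to 32.7) and 6.25% (3.69 to 10.4), with overlapping intervals. Sites named above that lay inside were those at 21ur-13428, ttc-36, hlh-6, R09D1.13, F59B10.9, C07E3.17, ZK945.4, M176.13 and mrpl-53, which made up 9 of the 30 of best rank, and also srh-135 and ceh-58. Without the stretch, the remaining members had 64.9% within 1000 bp of a 5' end, 7.82 percentage points above the non-shared replicate 1 peaks left.

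**Figure D4:**
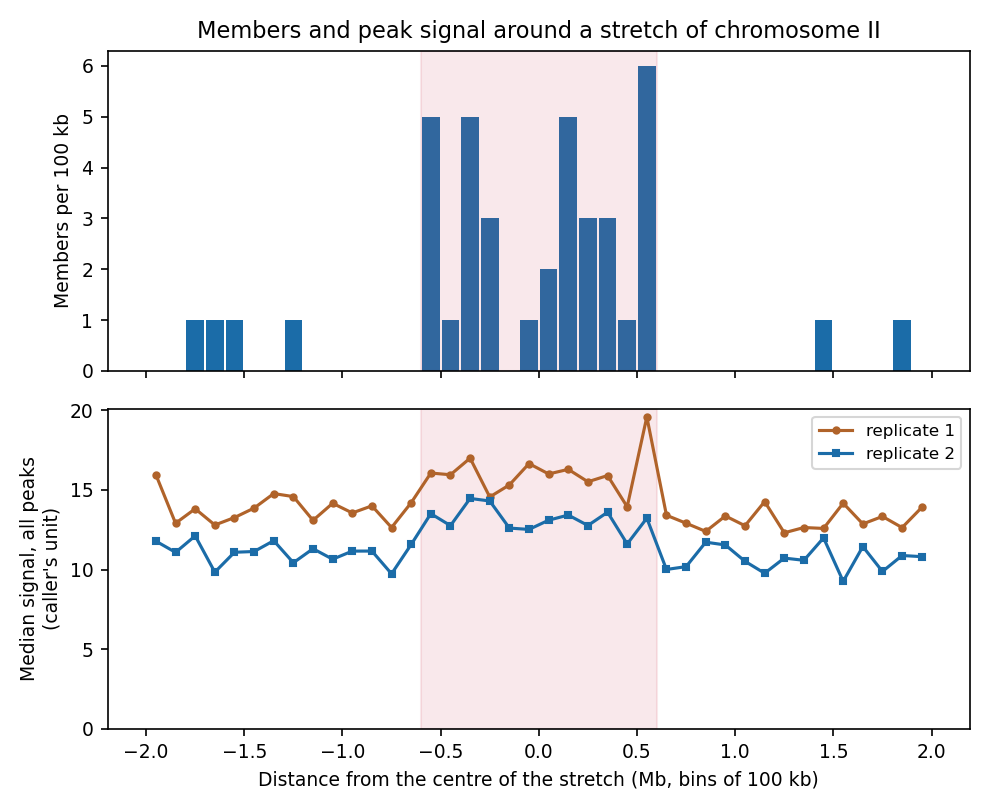
Members per 100 kb (top) and the median signal of all replicate 1 (brown) and replicate 2 (blue) peaks per 100 kb in the unit of the authors' caller (bottom), by distance from the centre of the stretch of chromosome II in Mb (x). The shaded 1.2 Mb holds 35 members, and the median over all its peaks is 15.8 in replicate 1 and 13.2 in replicate 2, compared with 12.8 and 10.6 in the rest of the chromosome, although single bins inside and outside overlap.

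By chromosome, II held 60 members (24.7%), X 52 (21.4%), V 38, IV 30 and III 25, with the remaining 38 on chromosome I. Chromosome II held 20.3% and 19.1% of the non-shared lists, and X held 19.1% and 21.2%. Without the stretch, II held 25 of 208 members (8.28 to 17.1%), compared with 15.8% and 14.1% of the non-shared peaks left. Members whose peak matched another place in the genome, over 50 bp or more with an identity of 90% or above, numbered 24 (9.9%, 6.7 to 14.3), compared with 8.4% and 9.0% of the non-shared lists. Apart from the spsb-2 peak, the most matches were 103 for the peak nearest to 21ur-9498 and 79 for that nearest to atad-3.

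The receptor core sequence was as rare at members as at non-shared peaks. AGGTCA or GGGTCA on either strand within 50 bp of the summit occurred in 8 of 243 members (3.3%, 1.7 to 6.4), 4.0% (3.1 to 5.0) of non-shared replicate 1 peaks and 3.9% (3.1 to 4.9) of non-shared replicate 2 peaks. Within 100 bp these shares were 9.1%, 7.2% and 7.9%. The F09C8.4 site, printed above with GGGTCA on the minus strand, had signals of 22.3 and 19.7. These letters are only 1 form of such a core and say nothing of others.

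The repeat GAGAGA, singled out after its values were seen, was more frequent at members than at non-shared peaks. It occurred on either strand within 50 bp of 36 members (14.8%, 10.9 to 19.8), 7.6% (6.5 to 9.0) of non-shared replicate 1 peaks and 9.8% (8.4 to 11.3) of non-shared replicate 2 peaks, and the last interval overlapped that of the members. Placed by replicate 2 summits the share was 13.3% (9.6 to 18.1), and in the thresholded sites it was 13.8% (8.3 to 22.2). The excess was not seen in the strongest members: for ranks 1 to 500 the repeat occurred in 10.6% of members and 11.9% of non-shared peaks. For the next 500 ranks the shares were 15.5% and 7.14%, and for the last 1000 they were 18 of 100 and 6.27%. Within 100 bp the shares were 23.05% of members and 14.2% and 17.8% of the non-shared lists. The windows of F59B10.9, nhr-1 and F09C8.4 printed above carried it, as did the second sdn-1 window. In the stretch of chromosome II, 3 of the 35 members carried it.

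Other motifs were rarer or did not hold in both replicates. The E-box CACGTG, a site of basic helix-loop-helix factors, occurred in 7 members (2.9%, 1.4 to 5.8), 1.0% and 1.1% of the non-shared lists, and in 1.7% by replicate 2 summits. CGCGCG occurred in 6 (2.5%, 1.1 to 5.3), 0.8% and 0.8%, and in 1.7% by replicate 2 summits. The run TTTTTTTT occurred in 9.5% of members, 14.8% and 13.5% of the non-shared lists, but in 14.1% of members by replicate 2 summits. The GATA factor site TGATAA occurred in 7.8%, 12.3% and 8.2%, and the core promoter element TATAAA in 12.3%, 16.7% and 13.8%. The splice acceptor TTTTCAG occurred in 7.0%, 8.7% and 8.3%, and GGTTCGA of tRNA genes in 2 members (0.82%). The words GAGAGA and, 1 base on, AGAGAG overlap each other in longer repeats, so their counts are not separate.

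**Figure D5:**
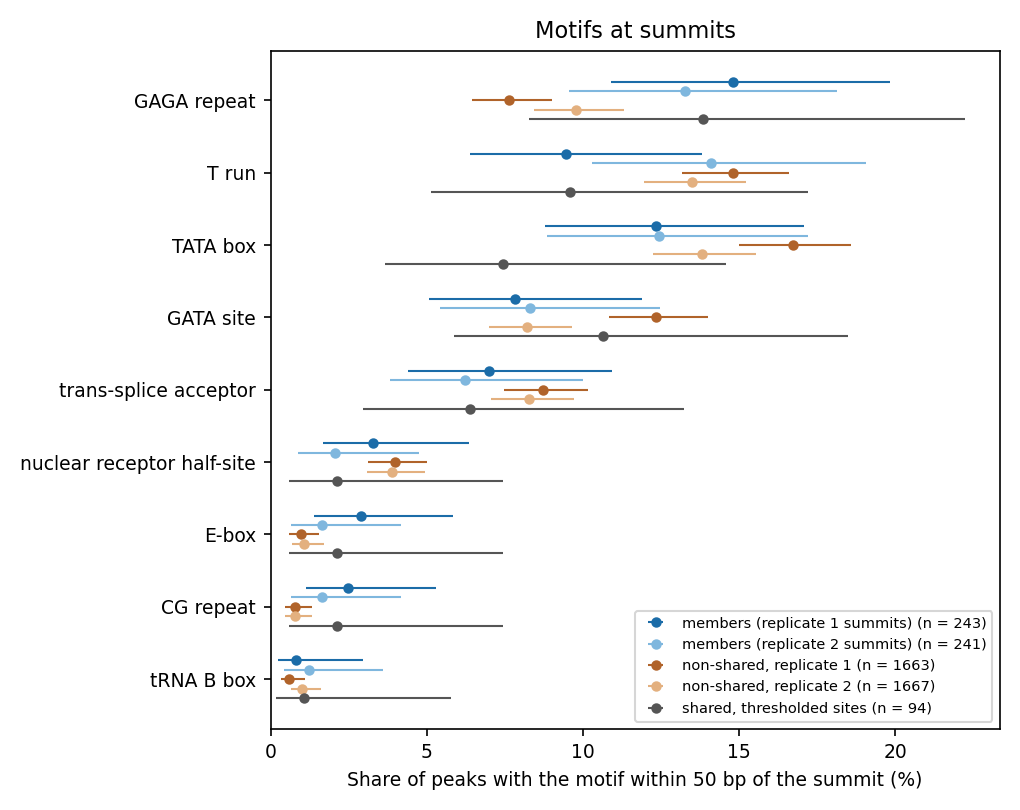
Share of peaks with each motif within 50 bp of the summit, either strand (x, %, 95% Wilson intervals), for members placed by replicate 1 and by replicate 2 summits (blue), non-shared peaks of each replicate (brown) and thresholded sites (grey). The GAGA repeat is the motif with the widest gap between members (14.8%) and non-shared replicate 1 peaks (7.6%), and the receptor core sequence, named there as the nuclear receptor half-site, does not separate them (3.3%, 4.0% and 3.9%).

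The GC content within 50 bp of the summit depended on which replicate placed it. Its median was 36.6% for members, 32.7% for non-shared replicate 1 peaks and 34.7% for non-shared replicate 2 peaks, and 39.6% for the thresholded sites. Placed by replicate 2 summits, the members had a median of 34.7%, which equals that of the non-shared replicate 2 peaks. The 6 chromosomes have 35.4% in all. The gap in replicate 1 held in each rank group, at 36.6%, 36.1% and 36.6% for members and 33.2%, 32.7% and 32.7% for non-shared peaks.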

How the data were processed

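ChIP-seq of eGFP-tagged NHR-11 was done in 2 biological replicates of late embryos, with fragments of 150 to 350 bp per the labels. Per the deposited file descriptions, the authors called peaks and background for each replicate against a control, and for both pooled. The control is not analysed here. The aligner, caller, settings and reproducibility threshold are not given in the sources used here. Peak signal is the authors' deposited value in their caller's unit, used only to rank peaks within a list and describe them. The deposited −log10 column was read as a q-value and turned back into a false discovery rate. The ce11 lists held 25795, 29222 and 9931 peaks (replicate 1, replicate 2, pooled). Depth is unknown, and the ce10 lists were not used.

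The members and lists were chosen with earlier results of these data known, and the members on their own signal. The 2000 highest peaks of each replicate were called shared where they overlapped by 1 bp or more, and those overlapping the 101 highest pooled peaks were removed. Summits were placed on the Ensembl 115 annotation of WBcel235 (46890 genes), in order of preference coding exon, UTR, noncoding exon, intron, intergenic. Peaks were aligned to the RefSeq genome with BLAST 2.17.0 (E-value at most 1e-05). Motifs (10) and all 2080 6-base words were counted on both strands. Only counts, medians and shares with 95% Wilson intervals were made. Named genes are those nearest to the 30 members of best weaker rank, with a second gene within 1000 bp, up to 4 members per list (22), and the members at the limits. Sequences from chromosome I were not printed. Genes of noncoding classes, the highest numbers of matches and the stretch of chromosome II were named after the values were seen. The overlap and motif steps were tested on simulated data. Python 3.11.15, numpy 2.4.6, pandas 2.3.3, scipy 1.17.1 and matplotlib 3.10.9 were used.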

Additional observations from a re-analysis of the deposited data

How the results depend on the processing

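Of 191 values under other settings, 164 kept their direction and stayed within the 95% interval of the reported value (counts within 1.5 times). These intervals are wide for differences: that for protein-coding 5' ends fell from 4.81 points to 0.109 with 500 peaks and 1.03 with 4000, and that for any 5' end from 6.08 to 1.02 with a 2000 bp window. Taking 500, 1000 or 4000 peaks of each replicate gave 32, 88 and 637 members. With 500, 56.25% of members lay within 1000 bp of a 5' end, 0.857 percentage points below the non-shared peaks (-0.857), the receptor core sequence differed by 0.382 points and GAGAGA by 0.530, and the median GC was 40.6%, 6.93 points above. Within replicate 1 ranks 1 to 500, 55.3% lay near a 5' end (difference -0.956, protein-coding -1.10), 1.18% held the core sequence and 10.6% GAGAGA (difference -1.32). The core sequence differed by 0.795 within the next 500 ranks, and within the last 1000 ranks 71% lay near a 5' end (difference 14.001). The windows of 500 and 2000 bp gave 49.4% and 79.0% for any gene and 32.1% and 63.0% for protein-coding genes. Within 100 bp of the summit, 9.05% held the core sequence (difference 1.90) and 23.05% GAGAGA. Matches of 95% over 100 bp occurred in 2.06%. Placed by replicate 2, the GC difference was 0.000. The cause of these changes was not tested. Leaving out the stretch of chromosome II, counting overlapping members once, leaving the strongest pooled peaks out of the non-shared peaks, and all GAGAGA values were chosen after seeing the data. Leaving out a replicate gives no value, since the choice needs both. No paired analysis was possible because the study has 1 group.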

Other observations

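Of all 2080 6-base words, counted with their reverse complement, AAGCCA came first when words were ordered by the smaller of their 2 excesses at members, over the non-shared replicate 1 and replicate 2 peaks. It occurred within 50 bp of the summit in 23 members (9.47%), 3.25% of non-shared replicate 1 and 3.00% of non-shared replicate 2 peaks, but in 5.81% of members placed by replicate 2 summits and 1.06% of the thresholded sites. The next word in this order was GAGAAA, found in 23.9% of members and in 17.98% and 17.04% of the non-shared lists. CTGCGC occurred in 15 members (6.17%), 1.32% and 1.26% of the non-shared lists, 4.56% of members placed by replicate 2 and 8.51% of the thresholded sites, so its excess was present by both placements. By the smaller of the 2 deficits, AAAGTT came first, found in 24 members (9.88%), 18.04% and 17.9% of the non-shared lists, but in 14.1% of members placed by replicate 2. A run of 6 A followed, with 38.7%, 46.4% and 45.1%. These words are the extremes of many and were chosen by the same values that are given, so the differences are a description.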
